A study of Mus musculus with 2 samples.

Results

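The distal microRNA cluster of the imprinted Dlk1-Dio3 region was examined in adrenal gland tissue of C57BL/6J mice. Members were all microRNA genes of the deposited tables that GENCODE M21 places on the plus strand of chromosome 12 (mm10) within the stretch from Mir379 to just past Mir410. This gave 39 of 2202 genes, spread over 38.9 kb from 109709060 to 109747960, with Mir379 first and Mir3072 last. The rule itself uses position and strand, not measured values. The series holds 2 libraries in 1 group, made from total RNA of wild-type adrenal tissue and numbered by the labels as biological replicates 1 and 2. Age is given as unknown, no treatment is named, and the labels are at odds over sex, which 1 entry gives as female and another as not collected. Both libraries carry the same donor identifier with different tissue identifiers. Whether different animals gave the tissue is not stated. Every test below sets the difference between these 2 libraries against counting error only, and that difference may be technical.

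The Dlk1-Dio3 region expresses its protein genes (Dlk1, Rtl1 and Dio3) from the paternal chromosome and its non-coding RNAs (Meg3, Rian, Mirg and their small RNAs) from the maternal one. The distal microRNAs arise from a long maternal transcript and are best known from brain, where neuronal activity raises the cluster, and from embryo and placenta. In the newborn mouse the cluster takes part in metabolic adaptation after birth. A microRNA is cut from a hairpin with a 5p and a 3p arm, and it recognises its targets mainly through bases 2 to 8 of the mature strand, the seed.

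The replicate 1 library held 9137907 counts on the strand of a microRNA gene and the replicate 2 library 6570375. Levels are counts per 1000000 of those totals (CPM). Where no read was counted, a level of up to 3 counts is allowed, equal to 0.328 CPM in replicate 1 and 0.457 CPM in replicate 2, and this limit covers counting error only. Reads with several alignments (35.9% and 36.0% of all reads) are not in the gene counts. None of the 71 mature sequences listed for members occurs whole in another listed hairpin. Matures of other genes were not searched for in the hairpins of members. No list of adrenal-specific microRNAs was fixed. Of microRNAs known from cell types, neuroendocrine Mir375 and Mir7b summed to 53659 and 51451 CPM and endothelial Mir126a had 61677 and 54325 CPM. The 3 kidney markers summed to 111 and 118 CPM, and the 4 striated muscle markers to 1.09 and 1.67 CPM. All of the muscle sum came from Mir206 and Mir499. Mir124a-1, Mir9-1, Mir1a-1 and Mir133a-1 were at 0 in both libraries. Each has near-identical copies elsewhere, whose reads can align to several places, so a 0 says nothing of its level.

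Mature sequences from RefSeq (GRCm38.p6) were matched to 38 of the 39 members, and 33 had both arms listed. The arms of the leading genes are shown first, since they make up most of the signal. A count is for the whole hairpin, so the arms are not told apart. Capitals mark the seed.
miR-379-5p: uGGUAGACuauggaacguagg
miR-379-3p: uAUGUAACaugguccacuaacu
miR-411-5p: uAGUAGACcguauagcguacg
miR-411-3p: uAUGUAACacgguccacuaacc
miR-382-5p: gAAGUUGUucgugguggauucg
miR-382-3p: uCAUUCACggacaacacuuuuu
miR-541-5p: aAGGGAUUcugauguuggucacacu
miR-541-3p: uGGCGAACacagaauccauacu

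Among the listed arms, most members carried a seed that no other member had. The 71 listed matures held 65 distinct seeds, and 6 seeds were shared by 2 members each, over 11 members. Some members, such as Mir539 and Mir485, had only 1 arm listed. Seeds of unlisted arms were not searched, so more members may share a seed. The 3p arms of the adjacent genes Mir379 and Mir411 share AUGUAAC, and no gene outside the cluster has this seed in the table. The 5p arm of Mir379 shares GGUAGAC with that of Mir1193. The matures that carry the remaining shared seeds are shown here after the 5p arm of Mir1193.
miR-1193-5p: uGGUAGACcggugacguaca
miR-376c-5p: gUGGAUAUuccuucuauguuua
miR-376b-5p: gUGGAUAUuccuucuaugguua
miR-494-5p: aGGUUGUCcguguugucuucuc
miR-410-5p: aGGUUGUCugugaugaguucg
miR-1197-5p: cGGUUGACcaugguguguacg
miR-758-5p: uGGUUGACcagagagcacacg
miR-496a-5p: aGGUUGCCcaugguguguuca
miR-453: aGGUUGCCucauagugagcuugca

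Several of these arms hold the run GGUUG. It occurred, on the strand of the mature RNA, in 9 of 36 member 5p arms (25%) and in 5.09% of the 727 5p arms in the whole table, members included. The run CACGG occurred in 6 of 34 member 3p arms (17.6%), those of Mir411, Mir323, Mir494, Mir382, Mir485 and Mir154, against 1.64% of the 731 3p arms in the table. Both runs were chosen after the arms had been read, so these shares are descriptions.

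Together the members held a modest part of the counts on the strand of a microRNA gene. Mir126a alone had more, at 61677 and 54325 CPM in replicates 1 and 2. They held 2.60% of the counts in replicate 1 (exact Clopper-Pearson 95% interval 2.59 to 2.61) and 3.17% in replicate 2 (3.15 to 3.18), or 2.88% ± 0.399 (SD, n = 2). In whole tissue, more cells of an expressing type and more RNA per cell cannot be told apart. At least 10 counts in both libraries were reached by 33 of the 39 members (84.6%), against 403 of all 2202 genes (18.3%). Of all genes 1384 had no count in either library, against 2 of the members. Genes with copies elsewhere can be at 0 because reads with several alignments are not counted, so this contrast is not one of expression alone. Signal was concentrated in a few genes. The leading pair held 45.8% ± 2.59 of the cluster's counts, the leading 4 held 70.9% ± 1.48 and the leading 10 held 88.6% ± 0.310. Between the highest member and the lowest one detected in both libraries the mean levels differed 1010-fold. In all, 5 members averaged 1000 CPM or more, 16 lay between 100 and 1000 CPM, 11 between 10 and 100 CPM and 7 below 10 CPM.

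**Figure D1:**
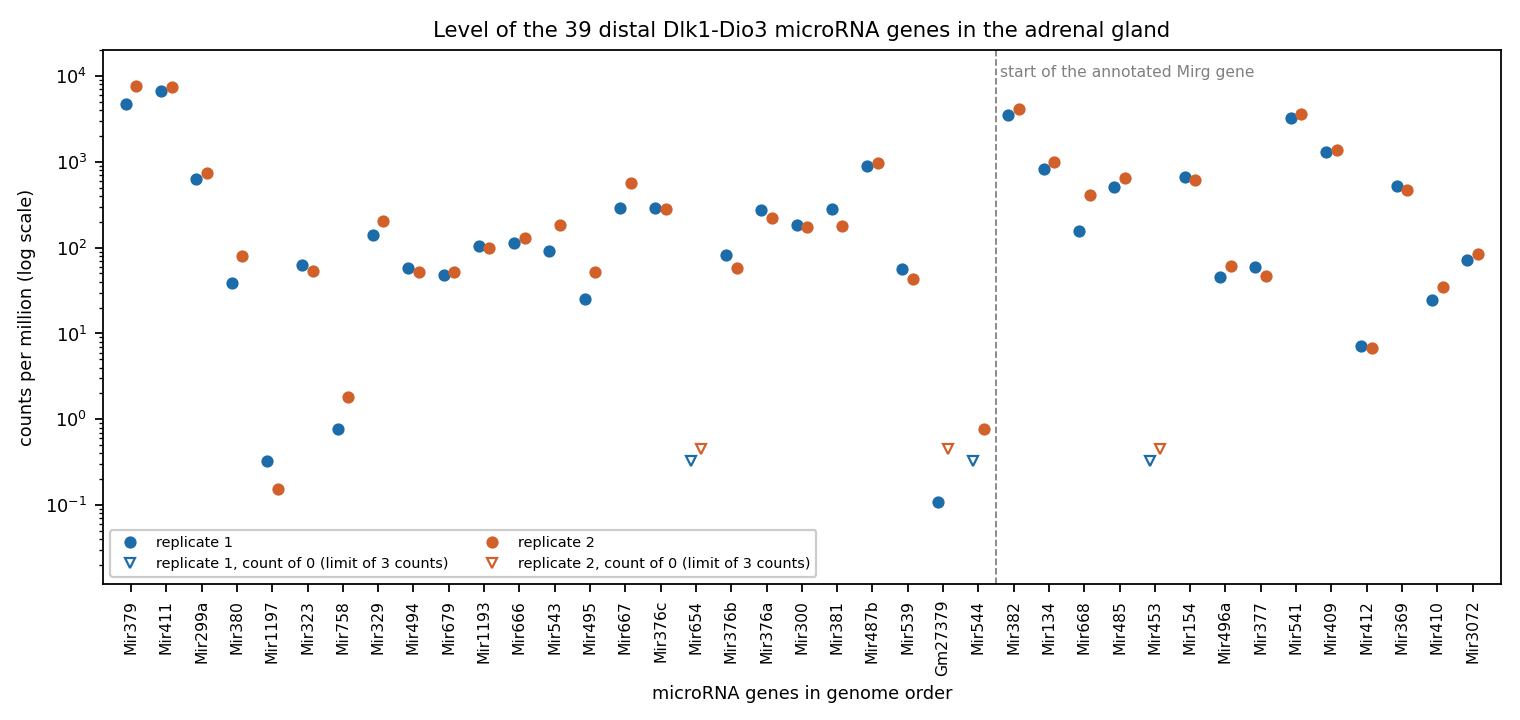
Level of each of the 39 members in CPM (log axis), in genome order, for replicate 1 (blue) and replicate 2 (orange). Open triangles mark a count of 0, drawn at the limit of 3 counts, and the dashed line marks where the annotated Mirg gene starts. Mir379, Mir411, Mir382, Mir541 and Mir409 stand above 1000 CPM in both libraries, and Mir654 and Mir453 have no count in either.

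Mir411 was the most abundant member, with 61222 and 49315 counts in replicates 1 and 2, that is 6700 and 7506 CPM. It ranked 26th among all genes in each library. Mir379, the first gene of the cluster, had 43229 and 49718 counts, or 4731 and 7567 CPM. The mean of Mir411 (7103 ± 570 CPM, SD, n = 2) and that of Mir379 (6149 ± 2006 CPM) lay within the spread of Mir379, so their order is not settled. Replicate 1 had more Mir411, and in replicate 2 both were nearly equal.

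Mir382 had 3490 and 4154 CPM, and Mir541, a gene studied in neurite growth, had 3259 and 3560 CPM. Their ranges overlapped, at 3822 ± 469 and 3410 ± 213 CPM, though Mir382 was the higher of them in each library. Mir409 followed at 1290 and 1385 CPM. It is the last member above 1000 CPM, and its libraries lay close together at 1337 ± 66.9 CPM.

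The next genes were less abundant. Mir487b had 887 and 971 CPM. Mir134, a brain microRNA that limits dendritic spine size through Limk1, had 816 and 988 CPM, and its range enclosed that of Mir487b. Mir299a had 635 and 739 CPM. Mir154 had 657 and 606 CPM. Mir485, which like Mir134 is known from synapses, had 512 and 644 CPM, so the ranges of Mir299a, Mir154 and Mir485 all overlapped. Within each library Mir299a was above Mir485, while the place of Mir154 against both changed between the libraries. Mir369 had 526 and 469 CPM, and Mir667 had 293 and 559 CPM.

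Among the Mir376 genes, whose primary transcripts are known targets of A-to-I editing by ADAR enzymes, Mir376c had 291 and 280 CPM and Mir376a 276 and 222 CPM. Mir376b reached 81.3 and 57.4 CPM, below both of them in each library. Mir376c and Mir376b have the most alike hairpins of the cluster, at 80.7% identity in a global alignment, against a median of 48.9% over 630 pairs. They share the 5p seed UGGAUAU shown above.

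Members that share a seed could differ widely in level. Mir1193, which shares a 5p seed with Mir379, had 105 and 100 CPM. Mir494 and Mir410 share GGUUGUC in their 5p arms and were both low, at 57.9 and 51.7 CPM for Mir494 and 24.8 and 34.7 CPM for Mir410. Mir410, studied in insulin-secreting cells, is the gene that usually names the far end of the cluster, and only Mir412 was lower among members detected in both libraries. Mir496a had 45.3 and 60.7 CPM, while Mir453, with the same seed, had no count in either library. Mir1197 and Mir758, which share GGUUGAC, had 3 and 1 counts and 7 and 12 counts.

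Related hairpins could also differ widely. Mir379 and Mir380 are 71.2% identical over the hairpin, with Mir411 and Mir299a between them, and are printed here with the listed mature arms in capitals.
Mir379 (chr12:109709060-109709125, plus strand): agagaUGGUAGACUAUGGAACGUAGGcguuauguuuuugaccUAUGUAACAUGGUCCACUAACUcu
Mir380 (chr12:109711803-109711863, plus strand): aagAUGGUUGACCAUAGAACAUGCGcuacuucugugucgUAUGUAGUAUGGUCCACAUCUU
Mir380 had 350 and 531 counts, or 38.3 and 80.8 CPM, against the 4731 and 7567 CPM of Mir379.

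The other detected members were of middle or low abundance. Mir381 had 279 and 178 CPM, Mir300 had 182 and 175 CPM and Mir329 had 141 and 206 CPM. Mir543 had 92.6 and 184 CPM, Mir666 had 114 and 131 CPM and Mir668 had 158 and 410 CPM. The last gene of the window, Mir3072, had 72.1 and 83.4 CPM. Mir323, Mir377, Mir679, Mir539 and Mir495 averaged 58.2, 52.6, 50.4, 49.5 and 38.9 CPM. Mir412 was the lowest member detected in both libraries, at 66 and 45 counts.

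The remaining 6 members had fewer than 10 counts in at least 1 library. Mir654 and Mir453 had none, which allows at most 0.328 CPM in replicate 1 and 0.457 CPM in replicate 2. Gm27379, a predicted microRNA gene, had 1 and 0 counts, and Mir544 had 0 and 5. With Mir1197 and Mir758 these make up the 6. Some of them lie close to detected members, as Mir654 does 156 nt before Mir376b and Mir1197 71 nt before Mir323, while Gm27379 and Mir544 are neighbours.

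Levels showed little order along the cluster. The annotated Mirg gene, a long non-coding RNA (chromosome 12, 109729764 to 109749460), covers only the last 14 members, and 9 of these overlap a Mirg exon. The other 25 lie before its annotated start, so the annotation does not place the whole cluster in Mirg. Members within Mirg held 42.0% and 39.3% of the cluster's counts. The gaps between neighbouring genes ran from 20 to 4368 nt, with a median of 556 nt. Over the 33 tested members, Spearman's rho between mean CPM and position was -0.073. Between neighbours along the chromosome, log2 mean CPM had a Pearson's r of 0.15 over 32 pairs. These are correlations across genes of the same libraries and are given as descriptions.

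Features of the hairpin were as loosely related to level. Among 36 members with a listed hairpin, GC content ran from 29.1% (Mir376c) to 72.3% (Mir3072), with a median of 43.4%, and the predicted folding energy from -46.7 (Mir3072) to -16.6 kcal/mol (Mir376a). Over the 32 tested ones, log2 mean CPM had a Pearson's r of 0.014 with GC content, 0.016 with folding energy per base and -0.057 with hairpin length.

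Genes of the other strand overlap 5 members: Mir299b lies opposite Mir299a, Gm25750 opposite Mir380, Gm25252 opposite Mir376a, Gm44322 opposite Mir539 and Gm24321 opposite Mir409. These 5 members had no count in the column for either strand. Mir409 had 11787 and 9097 counts on its own strand all the same. On their own strand, Mir299b had 5 and 1 counts and the 4 other overlapping genes had none.

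Outside the cluster, 2 genes above 100 CPM share a seed with a member among the listed arms. Mir672, an X-linked microRNA, had 583 and 891 CPM, and its 5p arm carries the GAGGUUG seed of the 5p arm of Mir377 (58.8 and 46.4 CPM). Mir370, a proximal gene of the same imprinted region, had 130 and 124 CPM, and its 5p arm has the AGGUCAC seed of the 3p arm of Mir1193. Those 2 seed pairs are printed here, since each joins a member to a gene of similar or higher level.
miR-377-5p: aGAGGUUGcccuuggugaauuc
miR-672-5p: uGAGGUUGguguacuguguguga
miR-1193-3p: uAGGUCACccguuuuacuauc
miR-370-5p: cAGGUCACgucucugcaguu

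The 20 proximal microRNA genes of the region lie upstream on the same strand and give the nearest comparison. They summed to 22498 and 26854 CPM, against 26014 and 31659 CPM for the distal members. The distal sum was thus 1.16 and 1.18 times the proximal one. Within the proximal group Mir127 alone made up 70.0% and 73.2% of the counts, at 15747 and 19661 CPM. Mir433 followed at 2089 and 2193 CPM and Mir431 at 1194 and 1357 CPM. Without Mir127, which was left out after its values were seen, the distal sum was 3.85 and 4.40 times the proximal one. In both groups most genes were detected in both libraries, 33 of 39 distal and 16 of 20 proximal. The difference between the groups was not tested.

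The libraries were then compared with each other, gene by gene, to show how far the members vary between 2 samples of the same tissue. An exact binomial test, two-sided, set the split of a gene's counts against that of the library sizes after TMM scaling (a trimmed mean of gene-wise ratios). It was run on the 426 genes whose counts summed to at least 20, with Benjamini-Hochberg adjustment over them. This test knows counting error only. Log2 ratios are replicate 2 over replicate 1, with 0.5 counts added per library. Of the 39 members 33 were tested, and all 33 had at least 10 counts in each library.

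Mir668 differed most between the libraries, at 1441 and 2695 counts, a 2.42-fold higher level in replicate 2 (log2 ratio 1.28, 95% counting interval 1.18 to 1.37). With TMM no other tested member was beyond 2-fold, and scaled by total counts 3 were, Mir668 (log2 ratio 1.38), Mir380 (1.08) and Mir495 (1.04). Its arms are miR-668-5p: gUAAGUGUgccucgggugagcaug
and miR-668-3p: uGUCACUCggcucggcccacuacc
Mir380 (log2 ratio 0.97, interval 0.78 to 1.17), Mir495 (0.94, 0.70 to 1.19), Mir543 (0.89, 0.76 to 1.02) and Mir667 (0.83, 0.76 to 0.90) were also higher in replicate 2. Mir379 followed at 0.57 (0.56 to 0.59), a 1.49-fold difference and the largest among members above 1000 CPM.

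In the other direction Mir381 was 1.68-fold higher in replicate 1, with 2551 and 1172 counts (log2 ratio -0.75, interval -0.85 to -0.65). Mir376b (-0.60, -0.79 to -0.42), Mir539 (-0.49, -0.71 to -0.28), Mir377 (-0.44, -0.65 to -0.24) and Mir376a (-0.41, -0.51 to -0.32) were also higher there. The arms of Mir381 are miR-381-5p: aGCGAGGUugcccuuuguauauu
and miR-381-3p: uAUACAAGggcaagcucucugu
Mir381 and Mir300 have 73.8% identical hairpins, and Mir300 differed little, at a log2 ratio of -0.16 (-0.27 to -0.05).

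**Figure D2:**
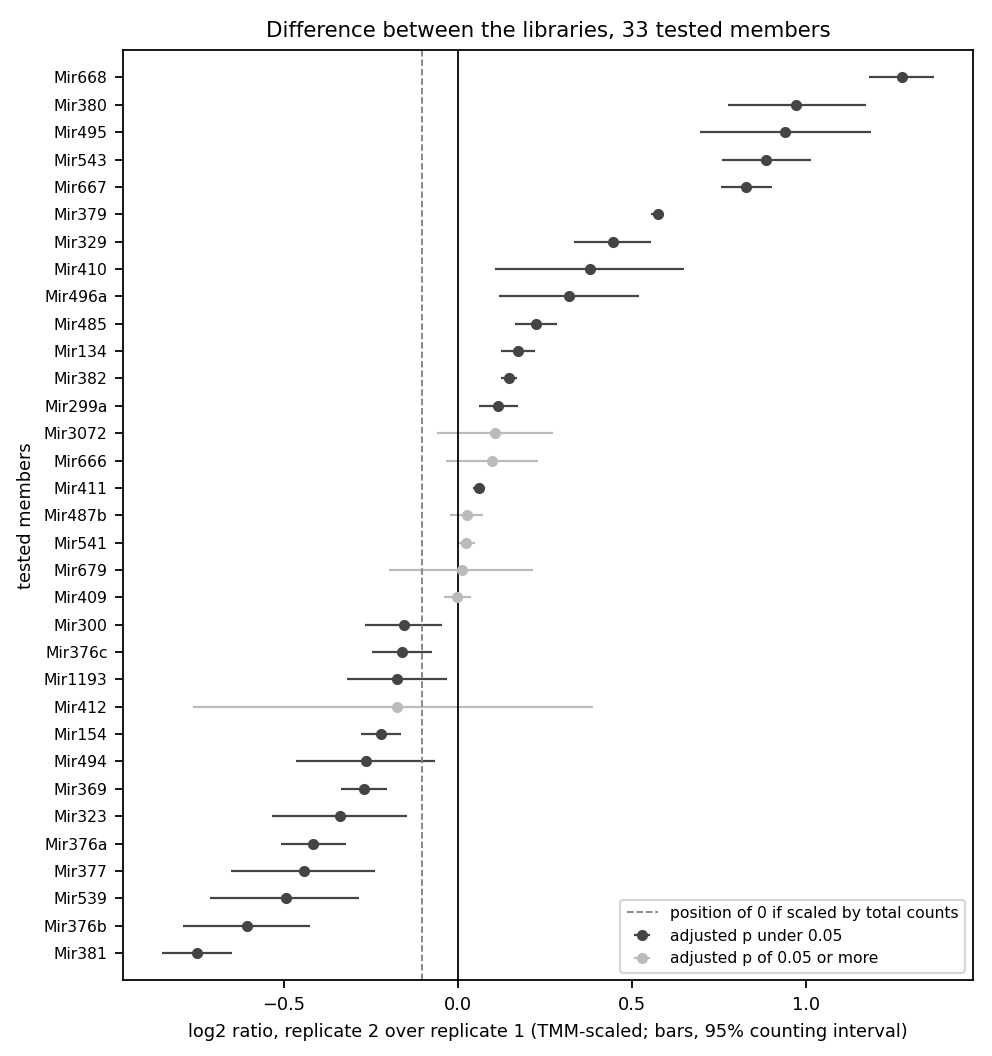
Log2 ratio of replicate 2 over replicate 1 for the 33 tested members, scaled by TMM, with bars for the 95% counting interval. Dark points had an adjusted p under 0.05 in the exact binomial test, and the dashed line shows where 0 would lie under scaling by total counts. Mir668 is at the top at 1.28 and Mir381 at the bottom at -0.75, with members on both sides of 0.

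In all, 26 of the 33 tested members differed beyond counting error, 14 higher in replicate 2 and 12 higher in replicate 1. Of all 426 tested genes, 56.1% were called, 25.8% higher in replicate 2 and 30.3% higher in replicate 1. Calls depend on abundance: among genes averaging at least 10 CPM, a limit set after the values were seen, 26 of 32 members (81.25%) and 74.4% of 289 genes were called. Of those genes 33.9% were called higher in replicate 2 and 40.5% higher in replicate 1, against 14 and 12 of the members. Scaled by total counts, 19 members were higher in replicate 2 and 8 in replicate 1, so the split depends on the scaling. That scaling adds 0.10 to every log2 ratio, and of all tested genes it called 57%, split into 35.2% higher in replicate 2 and 21.8% lower there.

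Most of the differences were small. The median absolute log2 ratio of the tested members was 0.26, a 1.20-fold difference either way, and that of all tested genes was 0.29. Calls beyond 1.5-fold were 7 of 33 members (21.2%), against 20.9% of all tested genes. The signed median was 0.027 over members and -0.025 over all tested genes. Among the abundant members, Mir411 had a log2 ratio of 0.06 (0.04 to 0.08), Mir382 0.15 (0.12 to 0.17), Mir541 0.02 (-0.00011 to 0.05) and Mir409 -0.0007 (-0.04 to 0.04). Mir541 and Mir409 were not called, with adjusted p of 0.0842 and 1 in the exact binomial test. Scaled by total counts both were called higher in replicate 2, Mir541 at 0.13 and Mir409 at 0.10, and with DESeq2 size factors Mir541 was called at 0.04.

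The summed cluster was higher in replicate 2, by a log2 ratio of 0.18 with TMM and 0.28 by total counts. Without Mir379, a choice made after its values were seen, the TMM value was 0.08. Across the tested members, log2(CPM + 1) in the libraries had a Pearson's r of 0.980 and a Spearman's rho of 0.961, and across all tested genes 0.987 and 0.980. These points share their libraries and are not independent replicates.

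**Figure D3:**
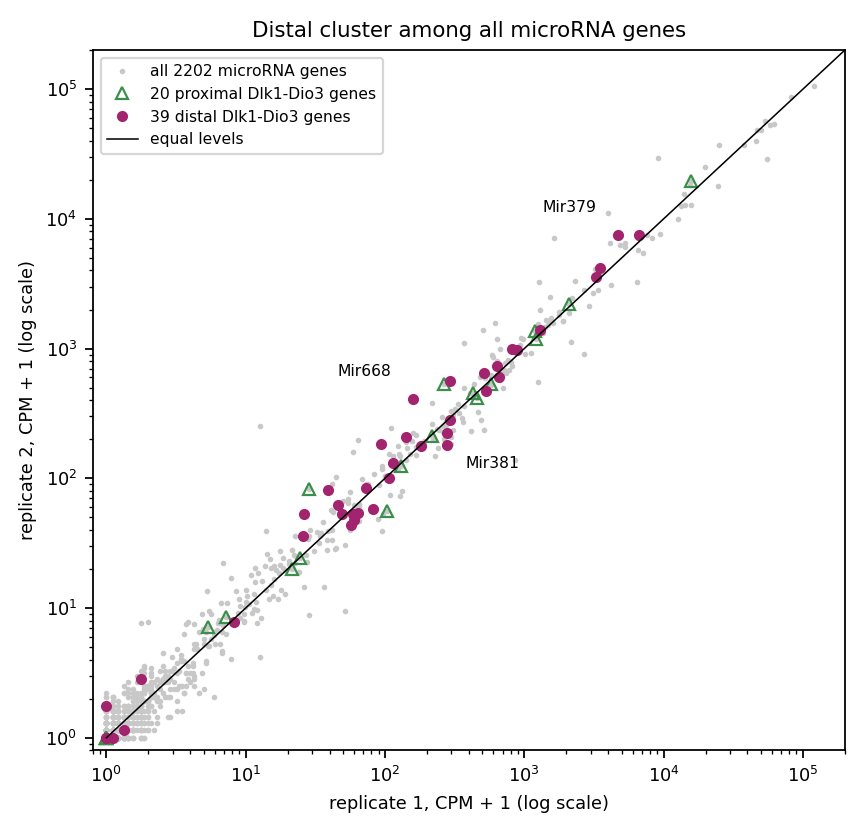
CPM + 1 in replicate 1 (x) against replicate 2 (y), both on log axes, for all 2202 microRNA genes (grey), the 20 proximal genes (green triangles) and the 39 distal members (purple). The members follow the line of equal levels over their whole range, with Mir668 and Mir379 above it and Mir381 below it.

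Differences between the libraries ran in both directions along the cluster. Log2 ratios of neighbours had a Pearson's r of 0.21 over 32 pairs, and rho with position was -0.17. Mir543, Mir495 and Mir667, which follow each other on the chromosome, were all higher in replicate 2, and Mir376c, Mir376b, Mir376a, Mir300 and Mir381, in the next stretch of detected genes, were all higher in replicate 1. Scaled by total counts, Mir376c and Mir300 did not pass. Both stretches were picked out after the ratios were seen and were not tested. Between the log2 ratio and hairpin GC content, Pearson's r was 0.27 over 32 tested members and 0.12 over 364 tested genes with a listed hairpin.

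Markers of other cells also differed between the libraries. The erythroid markers Mir451a and Mir486 summed to 123 and 270 CPM, the leukocyte markers to 784 and 726 CPM, and the fibroblast and smooth muscle markers to 16736 and 13885 CPM. Within both of the latter sums the markers differed in opposite directions. Mir142 had 416 and 231 CPM and Mir150 had 368 and 494 CPM, while Mir143 had 15759 and 12701 CPM and Mir145a had 977 and 1185 CPM. The hepatocyte marker Mir122 had 128 and 71.5 CPM, and the epithelial markers Mir200c and Mir203 summed to 698 and 709 CPM. Nearly all of that sum was Mir203, at 678 and 688 CPM, while Mir200c had 19.5 and 20.9 CPM. The neuroendocrine and endothelial markers given above had fewer CPM in replicate 2, where the cluster's sum was higher. Their part in the differences among members was not tested.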

How the data were processed

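Small RNA reads from 2 adrenal libraries were analysed as raw counts per microRNA gene, as deposited by the authors on mm10 with GENCODE M21, per the description deposited beside the tables. Adapter trimming is named per the labels' protocols. Aligner and counter were not given in the sources used here. The tables have 3 columns without a header, read from their totals as either strand, the strand of the gene and the opposite strand. The column of the strand of the gene was used, and the 4 rows that name no gene were left out. Counts carry no stated molecular identifiers, so intervals cover counting error only.

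TMM factors came from edgeR 4.0.16 and alternative size factors from DESeq2 1.42.0 (R 4.3.3). Exact binomial tests used SciPy 1.17.1. They were tried on simulated counts that varied by counting error only and were scaled by total counts, without TMM. Hairpins were folded with ViennaRNA 2.7.2 and aligned with Biopython 1.88. CPM was not divided by length, since a read covers a mature microRNA whole, so orders among genes are orders of read counts.

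The members and lists were chosen with earlier results of these data known. Full values go to the 12 most abundant members, up to 5 called members per direction averaging at least 10 CPM, the first and last member, those under 10 counts in a library, and those that share a seed. Genes outside are named if they share a seed and reach 100 CPM, with the 3 leading proximal genes. Other members are given for completeness. Alternatives were the either-strand column, other scalings, filters and detection limits, and each library alone.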

Additional observations from a re-analysis of the deposited data

Results flagged for a closer look

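Reads on the strand opposite to a member were left out of the comparisons above. At Mir299a there were 5 such reads in replicate 1 and 1 in replicate 2. The same reads are the counts of Mir299b, the microRNA gene annotated on that strand. The listed miR-299b-3p is identical to the start of miR-299a-3p, so short reads of these arms cannot be told apart by sequence. Mir299a itself had 5799 and 4857 counts.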

How the results depend on the processing

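The share of the cluster fell to 1.35% when all reads, with unmapped and multiply aligned ones, formed the denominator, and each library alone gave 2.60% and 3.17%. In the either-strand column, where 5 members overlapping an opposite-strand gene are at 0, the distal to proximal ratio was 1.13 in place of 1.17, and each library alone gave 1.16 and 1.18. Members called beyond 1.5-fold numbered 7 in place of 26, since that limit only removes calls. The number detected ran from 28 to 35 and the number called otherwise from 22 to 27 over the alternatives run. Mir409 changed direction, to 0.10 by total counts and 0.013 by DESeq2 size factors. By total counts Mir494 (-0.16), Mir1193 (-0.07), Mir376c (-0.06) and Mir300 (-0.05) lost their call, and Mir409, Mir487b (0.13), Mir541 (0.13), Mir666 (0.20) and Mir3072 (0.21) gained one. The median log2 ratio of the members ran from 0.03 to 0.13. Of 27 tested members with full values, 25 kept direction and call with DESeq2 size factors, where Mir541 gained one at 0.04. All 22 that could be tested did so in the either-strand column. Leaving out members with a mature sequence found in another hairpin removed 0 members. No paired analysis was possible because there is 1 group. With 2 libraries, a test over animals cannot be made.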
